A study of Homo sapiens with 2 samples.

Results

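The genes described here were 10 genes of the unfolded protein response: HSPA5, HSP90B1, CALR, PDIA4, XBP1, ATF4, ATF6, DDIT3, ERN1 and EIF2AK3. They were chosen by symbol and not by a rule on their level, but with earlier results of these data known. Each symbol matched 1 of the 57736 gene identifiers listed for both libraries. Poly(A)+ RNA of HEK293T cells, labelled wild type and given no treatment, was sequenced in 2 replicates with reads of 50 nt. HEK293T is a line of human embryonic kidney cells that carries the large T antigen of SV40, and both replicates came from this line alone, so the values describe a transformed line in culture and not kidney tissue. The study set RNA-Seq of untreated cells beside that of cells given heat shock, but no library of treated cells was analysed here, so no condition was compared with another.

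The unfolded protein response adjusts the folding capacity of the endoplasmic reticulum (ER) to its load of new proteins. In the ER membrane, 3 sensors are held inactive with the help of the chaperone BiP, the product of HSPA5: IRE1 (ERN1), PERK (EIF2AK3) and ATF6. Activated IRE1 removes a short stretch from XBP1 mRNA, PERK phosphorylates eIF2 alpha and so favours translation of ATF4, and ATF6 is cut in the Golgi to release a transcription factor. The factors made in this way raise transcription of ER chaperones and, through ATF4, of DDIT3, which encodes CHOP. ATF4 is controlled to a great part by translation and ATF6 by cleavage, which the amount of their mRNA does not show.

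The sequences below show the promoter feature that 4 of the 10 genes shared and the place where IRE1 acts. The first is the ER stress element, the letters CCAAT followed by 9 bases of any kind and CCACG, which is bound by NF-Y together with ATF6 or XBP1. It was looked for on both strands of the RefSeq promoter windows, from 250 bases before to 50 bases after each annotated start, and was found for HSPA5, HSP90B1, CALR and XBP1. Each stretch is given on the strand of its gene, 5′ to 3′, with the element and its inner 9 bases in capitals and 5 bases on either side in lower case. The second element of HSP90B1 and that of CALR lie on the opposite strand and so read as CGTGG, 9 bases and ATTGG. Coordinates are those of the exact match in GRCh37, and positions count from the RefSeq start.
HSPA5, chr9:128003665-128003693, minus strand, element at -66 to -48: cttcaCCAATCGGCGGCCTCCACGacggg
HSP90B1, chr12:104323989-104324017, plus strand, element at -194 to -176: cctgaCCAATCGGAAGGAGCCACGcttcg
HSP90B1, chr12:104324094-104324122, plus strand, element at -89 to -71: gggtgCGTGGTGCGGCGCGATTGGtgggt
CALR, chr19:13049193-13049221, plus strand, element at -225 to -207: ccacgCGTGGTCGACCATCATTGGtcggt
XBP1, chr22:29196586-29196614, minus strand, element at -52 to -34: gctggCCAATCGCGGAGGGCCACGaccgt

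In XBP1 the stretch that IRE1 removes was read from the genome as the gap between neighbouring exons of the spliced transcript. It is 26 bases long and lies at chr22:29192116-29192141 in GRCh37. It is given here in capitals with 30 bases on either side, because the gene's value counts mRNA with and without it. The stretch as annotated begins with G, and the base that follows it is also G. A stretch of the same length starting at the next base would leave the same spliced mRNA. The capitals therefore do not fix the exact bases between which IRE1 cuts.
XBP1, minus strand: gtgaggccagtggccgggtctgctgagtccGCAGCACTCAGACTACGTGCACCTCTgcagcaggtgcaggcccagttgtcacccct

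All 10 genes reached the limit of detection, a TPM of 1, in replicate 1 and in replicate 2. TPM gives the transcripts of a gene corrected for their length, on a scale whose total is equal between libraries, and it is the unit of every comparison between genes here. Together the 10 genes held 0.222% ± 0.0125 (SD, n = 2) of all TPM. Their mean levels ran from 5.95 TPM for ERN1 to 629 TPM for ATF4, while the median of the 12345 protein-coding genes detected was 21.2 TPM. All 4 genes that act inside the ER, and the transcription factors ATF4 and XBP1, lay above that median. All 3 sensors and DDIT3 lay below it. The median level of HSPA5, HSP90B1, CALR and PDIA4 was 33.5 ± 5.52 (SD, n = 2) times that of ATF6, ERN1 and EIF2AK3. The median of the sensors was the TPM of EIF2AK3 in both replicates, 11.7 and 8.34. Its estimated counts were 203 and 210, while the transcript length by which its TPM was corrected rose by 49.3%.

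**Figure D1:**
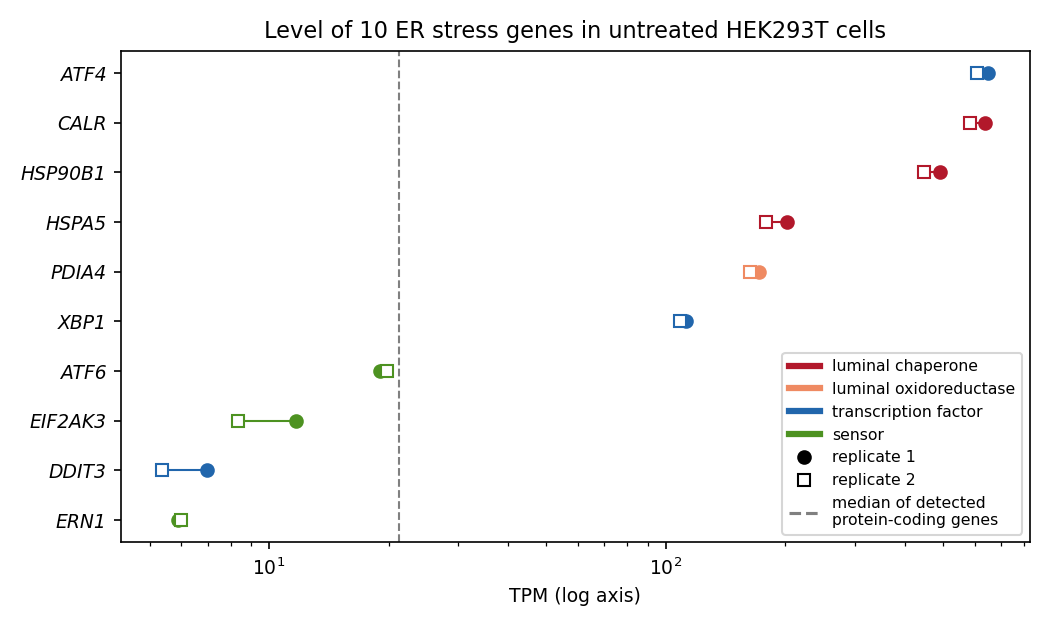
TPM (log axis) of the 10 genes in replicate 1 (filled circles) and replicate 2 (open squares), coloured by role, with the median of detected protein-coding genes, 21.2 TPM, as a dashed line. ATF4 and the ER chaperones lie at the top, and the 3 sensors with DDIT3 lie left of the line.

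Among the luminal chaperones, CALR was the highest. CALR encodes calreticulin, a lectin chaperone that holds newly made glycoproteins and binds calcium (chr19:13049392-13055303, plus strand). Its level was 637 TPM in replicate 1 and 585 TPM in replicate 2, from 7976 and 7186 estimated counts. HSP90B1 encodes GRP94, the HSP90 chaperone of the ER (chr12:104323885-104347709, plus strand). It reached 490 and 446 TPM in replicates 1 and 2, so both of its values lay below both values of CALR. HSPA5, whose product BiP is the HSP70 chaperone of the ER (chr9:127997132-128003661, minus strand), stood at 202 and 178 TPM. The level of HSP90B1 was thus 2.43 times that of HSPA5 in replicate 1 and 2.50 times in replicate 2, and that of CALR 3.16 and 3.28 times. PDIA4, a protein disulfide isomerase also known as ERp72 (chr7:148700154-148725754, minus strand), stood at 171 TPM in replicate 1 and 163 TPM in replicate 2. The lower value of HSPA5 was above the higher value of PDIA4, which made them close neighbours with no overlap. HSP90B1, CALR, HSPA5 and PDIA4 were all at or above the 94.6th percentile of detected protein-coding genes.

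The sensors were far lower. ATF6 (chr1:161736088-161947364, plus strand) was the highest of them, with 19.0 TPM in replicate 1 and 19.8 TPM in replicate 2, at the 47.3rd percentile of detected protein-coding genes. ERN1 (chr17:62116440-62208179, minus strand) was the lowest, with 5.91 and 5.99 TPM from 251 and 261 estimated counts, at the 20.0th percentile. ATF6 was 3.22 times as high as ERN1 in replicate 1 and 3.31 times in replicate 2. Ratios to ERN1 depended on the estimate used. In posterior mean TPM, a second estimate deposited beside the TPM, ERN1 had 8.12 and 8.98 TPM, and ATF6 was 2.20 and 2.06 times as high. EIF2AK3 (chr2:88856259-88991036, minus strand) lay between them, with 11.7 TPM in replicate 1 and 8.34 TPM in replicate 2. Its 2 TPM values were farther apart than those of any other sensor, although its estimated counts were 203 and 210. The count scaled for library size was 1.09 times as high in replicate 2, with a 95% counting interval of 0.895 to 1.33, whereas the TPM fell by 28.6%. The length that the quantification assigned to the gene, an average over its transcripts weighted by their estimated abundance, was 2379 nt in replicate 1 and 3552 nt in replicate 2, a rise of 49.3%. A change of length at least this large was found in 2.41% of detected protein-coding genes, and the median change was 5.09%. The place of EIF2AK3 among the sensors was the same in both replicates, but its distance from ATF6 was 1.63-fold in one and 2.38-fold in the other.

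The transcription factors covered the whole range. ATF4 (chr22:39915700-39918688, plus strand) had 650 TPM in replicate 1 and 608 TPM in replicate 2, at the 98.9th percentile of detected protein-coding genes. It was above CALR within each replicate, by 1.02 and 1.04 times, but the replicate values of these 2 genes overlapped. DDIT3 (chr12:57910371-57915520, minus strand), a target of ATF4 linked to cell death in prolonged stress, had 6.97 and 5.38 TPM. These rested on 45 and 35.1 estimated counts, with exact Poisson 95% intervals of 32.8 to 60.2 and 24.4 to 48.7, and overlapped the values of ERN1. ATF4 mRNA was therefore 93.2 times as high as DDIT3 mRNA in replicate 1 and 113 times in replicate 2. By posterior mean TPM it was 84.4 and 92.6 times as high. XBP1 (chr22:29190543-29196585, minus strand) stood at 112 TPM in replicate 1 and 109 TPM in replicate 2, or 19.0 and 18.1 times the level of ERN1, whose product splices its mRNA. In posterior mean TPM these ratios were 12.9 and 11.3. The gene values pool 6 listed transcripts. The 26 bases shown above are inside an exon of 4 of them, are removed in 1 and lie outside the other, and the share of XBP1 mRNA that had been spliced was not analysed here.

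From the highest mean to the lowest, the order was ATF4, CALR, HSP90B1, HSPA5, PDIA4, XBP1, ATF6, EIF2AK3, DDIT3 and ERN1. Of the 9 pairs of neighbours, ATF4 with CALR and DDIT3 with ERN1 had overlapping replicate values and the others did not. DDIT3 was above ERN1 in replicate 1 and below it in replicate 2. In posterior mean TPM DDIT3, with 7.11 and 6.05 TPM, was below ERN1 in both replicates and so the lowest of the 10. With 2 replicates in 1 group no permutation of samples can test these differences. The labels do not say that the replicates came from separate cultures, so the spread given here may be technical.

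The libraries held 10593491 and 10104118 estimated counts, and a count of 3 corresponded to 0.283 and 0.297 CPM (counts scaled to the library total). All 10 genes lay far above that. Of the HEK293 marker genes fixed for a check of the label, all 4 with a value were detected (PAX2, VIM, NEFM and INA), at 3.41 to 338 TPM in the mean. None of the 5 fibroblast and blood markers (DCN, LUM, COL1A2, PTPRC and CD79A) was detected, and their summed level was 1.47 TPM in replicate 1 and 1.63 TPM in replicate 2. Most of that was LUM, with 0.85 TPM in replicate 1 and 1.40 TPM in replicate 2, the latter above the limit of 1 TPM.

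The replicates were then compared gene by gene, which asks whether a gene differed between the libraries by more than the sampling of reads and says nothing of conditions. An exact binomial test, two-sided and made on the counts, called 2 of the 10 genes, HSPA5 and CALR, after Benjamini-Hochberg adjustment over all 17920 genes tested, of which 3.86% were called. Both were lower in replicate 2, a direction called for 1.76% of all genes. The estimated counts of HSPA5 were 5808 and 4943, a scaled ratio of 0.898 with a 95% interval of 0.864 to 0.933 (adjusted p = 4.2e-06). CALR had a ratio of 0.950 with an interval of 0.920 to 0.981 (adjusted p = 0.0457 by the exact test), and its call was lost with another library scaling, with no filter on low counts, with posterior mean counts and when only genes with whole counts were tested. ATF4 had a ratio of 0.953 with an interval of 0.920 to 0.986, which did not pass after adjustment (exact p = 0.00631, adjusted p = 0.11). Many reads make small differences visible. Among the 652 genes with at least 5000 summed counts, which included HSPA5, HSP90B1, CALR, PDIA4 and ATF4, 20.9% were called.

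The 7 other genes were not called. The ratio of replicate 2 to replicate 1 was 0.992 for HSP90B1, with an interval of 0.960 to 1.02, and 0.960 for PDIA4, with an interval of 0.915 to 1.01. The interval of DDIT3, 0.512 to 1.305, was the widest, and its counts were the lowest. The median log2 ratio of the 10 genes was -0.04 and that of all genes tested was 0.00. In TPM, 8 of the 10 genes were lower in replicate 2, while 6 were lower in scaled counts. The genes that differed in this were XBP1 and EIF2AK3, whose assigned length, by which TPM is divided, rose by 4.21% and 49.3%.

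**Figure D2:**
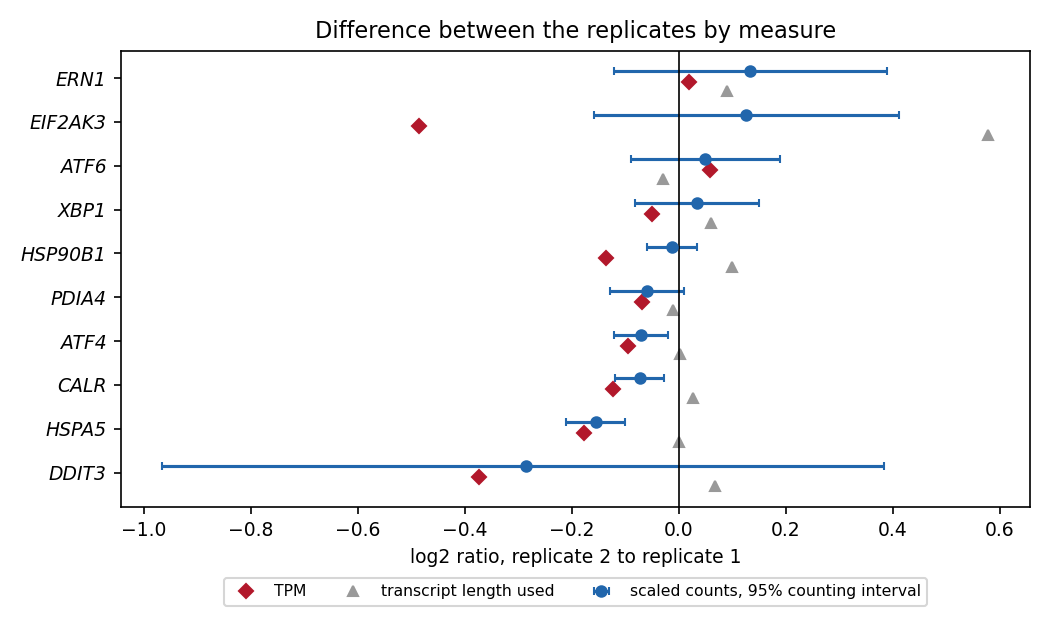
Log2 ratio of replicate 2 to replicate 1 for scaled counts (blue, bars for the 95% counting interval), TPM (red) and the transcript length used (grey), by gene. The interval of HSPA5 lies wholly below 0, and for EIF2AK3 the TPM and the length move apart while the interval of its counts spans 0.

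Reads that fit several genes touched the counts of the 10 genes little. The posterior SD of the estimated count, which describes how uncertain the sharing of reads between genes was, was at most 2.33 counts (ATF4, replicate 1). It was 0 in both replicates for PDIA4, ERN1, ATF6 and XBP1. This SD does not cover the sharing of reads among transcripts of the same gene, which sets the assigned length and so the TPM. ERN1 had 8.12 and 8.98 posterior mean TPM beside 5.91 and 5.99 TPM. HSPA5, with only 1 listed transcript, also differed, with 186 and 164 posterior mean TPM beside 202 and 178 TPM. What sets the estimates apart was not tested. Processed pseudogenes, intronless copies that can attract reads fitting several genes, are listed for 4 of the genes. XBP1P1 held 10 counts in replicate 1 and 9 in replicate 2, which came to 0.782% of the counts of XBP1 over both libraries. HSP90B2P held 7.41 and 6.38 counts, HSPA5P1 0 and 3.38, ATF4P3 8.53 and 1.49, ATF4P4 2.65 and 3.99, and ATF4P1 0 and 1.01. Each of these copies came to under 1% of its parent gene. DDIT3 has both of its ends overlapped on the opposite strand by MARS1, with 2255 and 2061 counts, and by MBD6, with 941 and 873. The sources used here do not give whether strand was used in counting, and without it the reads of the shared parts cannot be told apart.

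The wider pathway was described by 7 lists with 89 genes in all, the 10 genes included. Of these, 86 were detected, and 60 lay above the median of detected protein-coding genes. The median level over the 89 genes was 37.3 TPM, beside 6.50 TPM over all 19391 protein-coding genes, of which 63.7% were detected. Of the pathway genes 5 differed between the libraries, 4 of them lower in replicate 2, out of 86 with a count high enough for the test. That is 5.81%, beside 3.86% of all genes in either direction and 1.76% lower in replicate 2. Of the 5 genes, 4 were among the 13 pathway genes with at least 5000 summed counts.

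The ER folding machinery was the highest group. Of the 16 ER chaperones all were detected, 14 lay above 21.2 TPM, and their median was 80.9 TPM. CANX, the membrane-bound partner of calreticulin in the glycoprotein cycle, was the highest at 984 ± 32.2 TPM (SD, n = 2), followed by CALR and HSP90B1. CANX was 1.58 times as high as CALR in replicate 1 and 1.64 times in replicate 2. The lowest were DNAJC3, a co-chaperone of BiP that also restrains PERK, at 13.8 TPM, and DNAJB9, a co-chaperone of BiP that acts on IRE1, at 8.57 TPM. In this list 4 genes differed between the libraries, all of them among its 5 genes with at least 5000 summed counts, a depth at which 20.9% of all genes were called. In scaled counts CANX was higher in replicate 2 (log2 ratio 0.07, adjusted p = 0.0108 by the exact test). In TPM it was lower there, at 961 beside 1006 in replicate 1. HSPA5, CALR and HYOU1 were lower in scaled counts (HYOU1, another chaperone of the lumen, log2 ratio -0.14, adjusted p = 0.00989 by the exact test). The 10 oxidoreductases, which form and rearrange disulfide bonds, were all detected with a median of 102 TPM, and none differed between the libraries. P4HB, the classical protein disulfide isomerase, led them at 526 TPM, then PDIA3 at 275 TPM and PDIA4, while ERP44 and ERO1B were lowest at 23.4 and 12.2 TPM.

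Degradation and signalling genes lay lower. All 18 genes of ER-associated degradation were detected, with a median of 44.7 TPM. VCP, the ATPase that extracts proteins from the ER membrane, was the highest of them at 239 TPM, then UBE2G2 at 126 TPM and AUP1 at 116 TPM, while EDEM2 had 13.1 TPM and DERL3 6.63 TPM. The 8 genes of the sensors and of the enzymes that process their products had a median of 20.1 TPM. RTCB, the ligase that joins the cut ends of XBP1 mRNA, was the highest at 97.2 TPM. MBTPS1, a Golgi protease that cuts ATF6, stood at 63.1 TPM and ATF6B, the relative of ATF6, at 47.2 TPM. ATF6B was thus 2.45 times as high as ATF6 in replicate 1 and 2.40 times in replicate 2. ERN2, the IRE1 relative known from the gut, was not detected, with 1 and 2 estimated counts.

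Of the 7 genes for eIF2 alpha, its kinases and the subunits that direct its phosphatase, EIF2AK3 had the lowest mean. Its replicate values, 11.7 and 8.34 TPM, overlapped those of PPP1R15A, 12.6 and 11.5 TPM. EIF2S1, which encodes eIF2 alpha itself, stood at 119 TPM and the haem-regulated kinase EIF2AK1 at 105 TPM. EIF2AK1 was 9.20 times as high as EIF2AK3 in replicate 1 and 12.4 times in replicate 2. PPP1R15B, the constitutive phosphatase subunit, was 2.96 and 3.23 times as high as PPP1R15A, the subunit induced in stress, which had 12.1 TPM.

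Among the 15 transcription factors, ATF4 and XBP1 were the highest, followed by NFYC, a subunit of NF-Y, at 58.0 TPM, and the median was 18.7 TPM. CREB3L1 was the lowest of the 14 detected at 3.25 TPM, and CREB3L3, a factor known from liver, was not detected. The 17 targets of ATF4 and CHOP had a median of 21.5 TPM and ranged widely. PHGDH and PSAT1 of serine synthesis stood at 224 and 117 TPM and the mitochondrial folate enzyme MTHFD2 at 174 TPM. At the other end VLDLR had 1.98 TPM, and NUPR1 was not detected, with 1 count in replicate 1 and 0 in replicate 2. STC2, picked out after its value was seen, was the only gene of the list that differed between the libraries (log2 ratio -0.24, adjusted p = 0.0352 by the exact test).

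**Figure D3:**
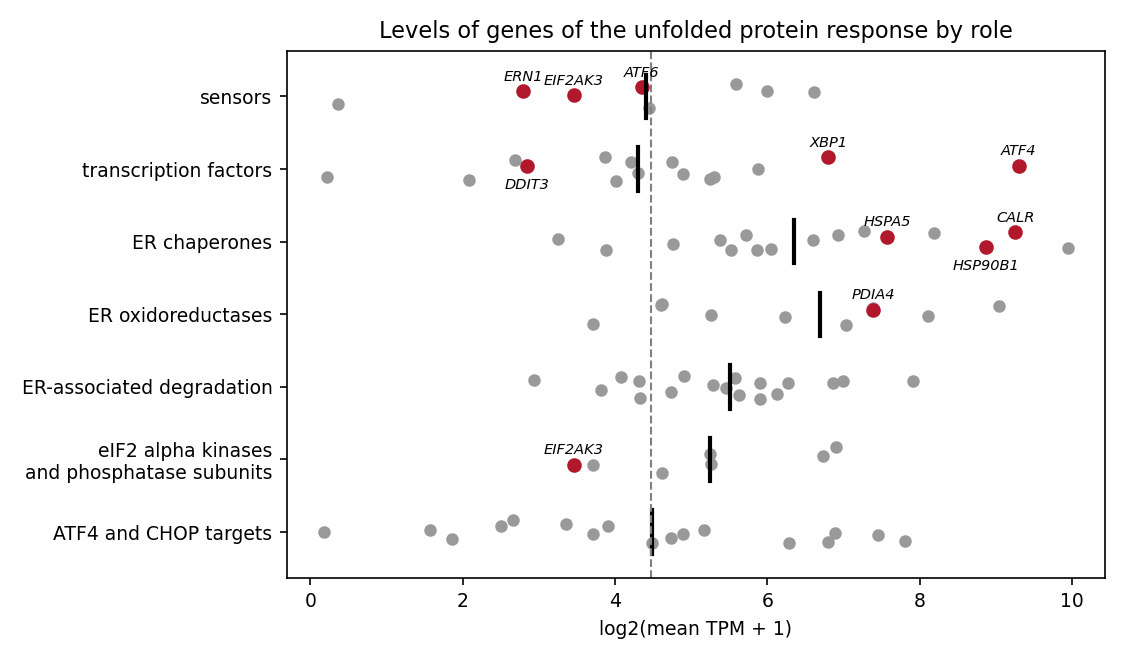
Log2(mean TPM + 1) of the genes of 7 lists, with the 10 genes in red and named, the median of each list as a black bar and the median of detected protein-coding genes as a dashed line. The medians of the chaperones and oxidoreductases, 80.9 and 102 TPM, lie right of the line, and EIF2AK3 is the lowest point of its kinase list.

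The ER stress element shown at the start was rare among promoters. It was found in 27 of 35116 RefSeq windows of 300 bases, or 0.0769%, belonging to 25 genes. Of the 80 pathway genes with a window, 8 held it: the 4 genes shown and CANX, PDIA6, CRELD2 and ERO1B. For CANX it was listed at 3 positions, each counted from an annotated start (-189 to -171, -151 to -133 and -9 to 9). These positions were not placed on the genome, so they may be the same element seen from several starts. Of 21 protein-coding genes with the element and a level, 15 were detected, and the median of those was 74.6 TPM. These 15 included all 8 pathway genes. Over all 14996 protein-coding genes with a window and a level, 10020 were detected with a median of 22.5 TPM. With the undetected genes kept in, the medians were 14.1 TPM for the 21 genes and 8.78 TPM for all 14996. Outside the 7 lists, the highest were EIF2A at 123 TPM, SERP1 at 74.6 TPM and ALG12 at 25.0 TPM. EIF2A and SERP1 are both on chromosome 3, and ALG12 and CRELD2 are both on chromosome 22. Whether the windows of either pair share the same element was not examined here. The remaining detected genes outside the lists lay from 2.77 to 14.1 TPM, below the median of 22.5 TPM. Absence from the lists does not place a gene outside the unfolded protein response. A match is a description of letters only. The 21 genes are few and were not chosen independently of the pathway, since the element was first described in promoters of ER chaperones.

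**Figure D4:**
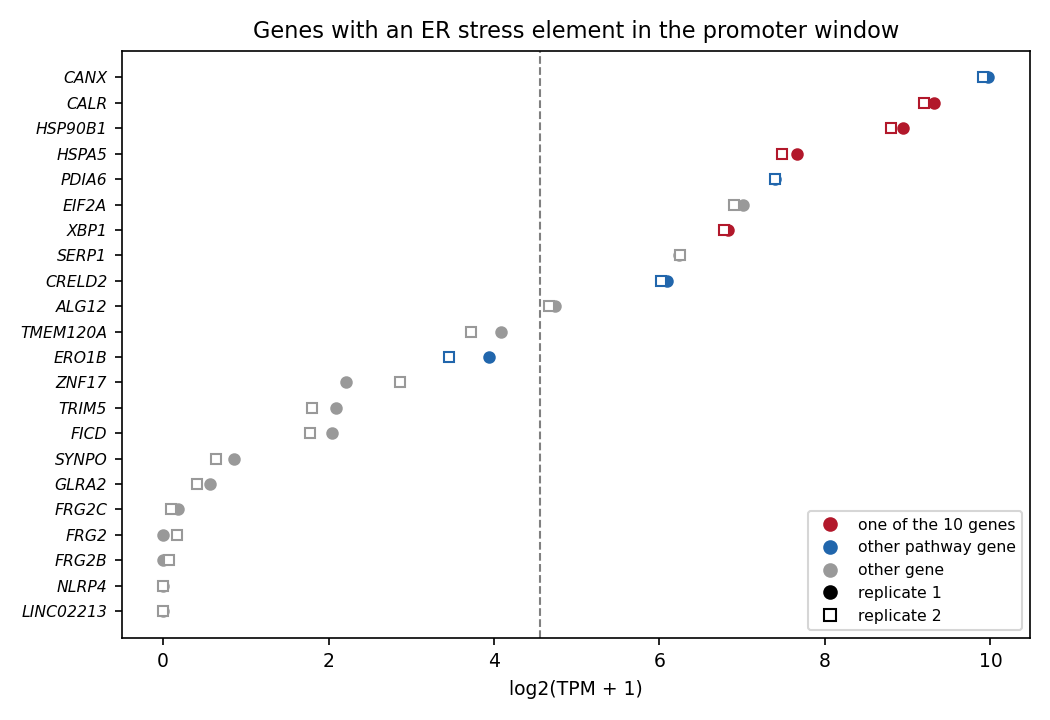
Log2(TPM + 1) in replicate 1 (filled circles) and replicate 2 (open squares) of the genes with an ER stress element in their promoter window and a level, with the 4 of the 10 genes in red, other pathway genes in blue and other genes in grey. The dashed line marks 22.5 TPM, the median of detected protein-coding genes with a window, and the 4 red genes lie right of it.

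The 3 other elements searched were in none of the windows of the 10 genes. The ER stress element II (ATTGG, any base, CCACG) was in 0.0541% of all windows and in those of HYOU1, HERPUD1 and SDF2L1 of the pathway. The core TGACGTG of the UPR element bound by XBP1 was in 1.97% of windows and in those of 7 of the 80 pathway genes (NFYC, UBXN4, DNAJC10, TXNDC5, UBE2J1, VCP and HYOU1). The C/EBP-ATF element (TGATG, any base, AAT), known from targets of ATF4 and CHOP, was in 0.991% of windows and in 0 of the 80. Among the pathway genes only HYOU1 had matches of different elements that overlapped, an ER stress element II at -185 to -175 and a core TGACGTG at -188 to -182. A missing match says only that these letters were not found in the window.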

How the data were processed

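Poly(A)+ RNA of 2 replicates of HEK293T cells, 1 group by the labels, was analysed. Per the submitters' processing notes, the authors trimmed reads with Trimmomatic 0.36, aligned them with STAR 2.6.1c to GRCh37 and quantified genes with RSEM 1.3.1, and the methods name an Ensembl 87 gene list. The methods also name featureCounts, but the deposited columns have RSEM's names. Estimated counts, as deposited, share a read that fits several genes among them. TPM and FPKM values were computed by the authors from those counts, the abundance-weighted transcript length and the library total. Among the deposited scores are the posterior SD of each count and an interval on the TPM scale. That interval belongs to the posterior mean TPM, and the TPM lay inside it for 4 of the 10 genes in replicate 1 and 3 in replicate 2, so it is not used as an error. The authors' pooled table equals the summed counts of both replicates for 10 of 10 genes, within 1% or 1 count.

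GENCODE release 44, mapped to GRCh37, gave symbols, gene types and coordinates and matched 96.1% of identifiers. Detection required 1 TPM or more in each replicate. Estimated counts were rounded and compared between libraries by an exact two-sided binomial test against library sizes scaled by TMM (edgeR 4.0.16, R 4.3.3, scipy 1.17.1), with Benjamini-Hochberg adjustment at 0.05 over genes with 10 or more summed counts. For log2 ratios 0.5 was added to each count. Intervals cover counting error only. The test was also run on simulated counts that varied by the sampling of reads alone. That run does not show how the test behaves on real replicates. Promoter windows came from RefSeq (GRCh38.p14), were available for all 10 genes, and the printed stretches were matched exactly to GRCh37.

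The 10 genes, the lists and the tests were chosen with earlier results of these data known. Genes named were the 10, the 3 highest and 2 lowest of each list with those not detected, copies with counts, the genes of the lists with an ER stress element and the 10 highest genes with it. HYOU1 and STC2 were named after their values were seen, and pathway genes with another promoter element for that element. A marker of the HEK293 list, LHX1, to which the annotation used here matched no identifier, was not analysed. Alternatives were other units, thresholds, normalizations and filters, and each replicate alone.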

Additional observations from a re-analysis of the deposited data

How the results depend on the processing

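All 10 genes were detected at every threshold tried and in each replicate alone, and 82 to 86 of the pathway genes were. The share of the 10 genes in all TPM, 0.222%, was 0.316% as a share of estimated counts, 0.318% as a share of the TPM of protein-coding genes and 0.206% in posterior mean TPM, and ran from 0.213% to 0.231% with one replicate left out. The ratio of the medians of chaperones and sensors, 33.5, was 27.3 in posterior mean TPM, 25.0 in estimated counts and 27.6 through log2(TPM + 1), and ran from 29.6 to 37.4 with one replicate left out. It was 29.6 in counts per kb of the longest transcript listed, a setting chosen after seeing the data. In TPM the median of the sensors was the value of EIF2AK3 in each replicate. Of the 10 genes 2 differed between the libraries, as they did with total counts and with a summed count of at least 100. This fell to 1, HSPA5, with RLE scaling, with no filter and with posterior mean counts, and to 0 of 5 tested with whole counts only, where CALR was tested and HSPA5 was not. In posterior mean TPM the level of 7 of the 10 genes moved by more than 1 SD, and that of ERN1 rose to 8.55 TPM, so that DDIT3 became the lowest and the mean ratio of XBP1 to ERN1 went from 18.6 to 12.1 and that of ATF6 to ERN1 from 3.26 to 2.13 (ratios chosen after seeing the data). The mean ratio of ATF4 to DDIT3, also chosen after seeing the data, went from 103 to 88.5. The cause of these moves was not tested. No paired analysis was possible because both libraries belong to 1 group. With 35.1 to 45 counts, DDIT3 had the least depth.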
